A study of Mus musculus with 12 samples.

Results

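The response of primary mouse hepatocytes to TCDD through the human aryl hydrocarbon receptor (AHR) was measured by setting 3 arrays of human AHR hepatocytes given TCDD against 3 arrays of human AHR hepatocytes given vehicle. These 6 arrays were taken by their titles from the 12 arrays of the series, and the other 6 hold the same treatments in wild type hepatocytes. The human AHR mice carried the strain label B6.Cg-Ahrtm3.1Bra with the transgene Tg (Alb-cre, Ttr-AHR)1Ghp, that is, a floxed mouse Ahr gene, a Cre recombinase under the albumin promoter and human AHR under the transthyretin promoter. Both promoters act in hepatocytes, so other liver cells that stay in a preparation would keep their mouse receptor. The wild type mice were C57BL6/J, with their own mouse receptor. All cells were liver hepatocytes kept for 48 h in Hepatozyme-SFM medium with 2.5% dimethyl sulfoxide, 10 nM dexamethasone, penicillin and streptomycin, and all were then given DMSO vehicle or 10 nM TCDD for 6 h. Ages were not stated. The design text gives 1 array per mouse, with 3 mice in each group.

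The AHR is a transcription factor that waits in the cytosol, bound to chaperones, until a ligand such as the dioxin TCDD binds it. It then enters the nucleus, pairs with ARNT and binds DNA at dioxin response elements, whose core letters are GCGTG. In the liver its best known targets are the cytochromes P450 of the CYP1 family, and the ADP-ribosyltransferase Tiparp, itself induced by the receptor, limits the receptor's activity.

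The values are array intensities brought to a common scale, on which the mean over probe sets, after trimming 2% at each end, is 150 in every array. Changes are differences of log2(intensity + 16), TCDD minus vehicle, and a fold is 2 to that power, so it includes the offset of 16 and understates the change of dim genes. A gene is called when its limma p, adjusted by Benjamini-Hochberg over all 18193 genes, is under 0.05. Over the 6 human AHR arrays, between 7116 and 7328 genes had an intensity of at least 100, and 2 arrays of the same group correlated across genes at 0.981 to 0.984. The mouse Ahr probe set read 223.6, 192.8 and 235.9 under vehicle and 224.8, 192.9 and 215.8 under TCDD, against 244.7 to 616.7 in wild type vehicle arrays. No source places this probe set inside or outside the floxed exon, so its signal checks nothing about the deletion. Human AHR transcript was not analysed here. Xist, which is transcribed in female cells, lay between 15.1 and 29.3 in all 6 human AHR arrays. It stood at 3085 and 2952 in the wild type vehicle and TCDD arrays numbered 2, which enter here through the shared estimate of each gene's spread and through the comparison with wild type. The sum over 17 hepatocyte markers, such as Alb and Ttr, ran from 118600 to 152700 under vehicle and from 121300 to 148400 under TCDD. In bulk RNA, fewer cells of a type and less RNA per cell cannot be told apart.

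TCDD raised 4 genes in human AHR hepatocytes, 0.022% of those tested. They were Cyp1a1, Rab30, B3galnt2 and Tiparp, and 0 genes (0%) were called lower. At an unadjusted p under 0.05, 261 genes were higher (1.43%) and 266 lower (1.46%), together 2.9%. SAM, over all 20 assignments of the 6 arrays, called 7 genes higher and 0 lower. Of the 4 called genes, Cyp1a1 and Tiparp have a RefSeq promoter entry in the table used (GRCm38.p6), and their 250 bases before the start site are shown because they hold the core letters of the dioxin response element. Capitals mark GCGTG on the printed strand or CACGC, the same element on the other strand. The Cyp1a1 stretch is chr9:57697363-57697612 and the Tiparp stretch chr3:65528197-65528446, both on the plus strand.
Cyp1a1: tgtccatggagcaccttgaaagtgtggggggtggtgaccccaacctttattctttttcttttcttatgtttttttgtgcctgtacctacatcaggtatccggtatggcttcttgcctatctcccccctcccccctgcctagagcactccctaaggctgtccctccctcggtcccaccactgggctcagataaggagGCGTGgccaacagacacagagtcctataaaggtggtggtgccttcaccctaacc
Tiparp: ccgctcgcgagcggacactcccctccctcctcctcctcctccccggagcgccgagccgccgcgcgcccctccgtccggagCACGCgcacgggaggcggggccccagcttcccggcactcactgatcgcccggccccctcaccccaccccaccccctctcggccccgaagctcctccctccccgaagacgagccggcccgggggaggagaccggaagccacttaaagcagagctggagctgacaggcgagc
The middle letter of the match lies at -52 from the start site in Cyp1a1 and at -168 in Tiparp, where it is on the opposite strand. GCGTG, searched on both strands, was in 32.4% of all 32851 windows reaching from 250 bases before to 50 after a start site, and TNGCGTG, which contains it, in 5.07%. Neither of the stretches shown held TNGCGTG. A match is a description of letters and not a binding site, and bases more than 250 before a start site were not searched.

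Cyp1a1 encodes the cytochrome P450 that oxidises polycyclic aromatic compounds. It read 81.9, 63.0 and 60.5 in the vehicle arrays and 6624, 4004 and 6939 in the TCDD arrays. All TCDD arrays stood far above all vehicle arrays, with the lowest TCDD value in array 2. The mean went from 68.5 ± 11.7 to 5856 ± 1611 (SD, n = 3), a log2 change of 6.09 (standard error 0.87, 95% confidence interval 4.20 to 7.97, limma adjusted p = 0.0427) and 68.0-fold on the fitted scale. Its sister genes did not pass. Cyp1a2, whose product oxidises caffeine and aromatic amines, was already bright under vehicle, at 3352, 3001 and 2572, and read 3426, 3348 and 2848 under TCDD. These groups overlapped, with a log2 change of 0.11 (95% confidence interval -0.47 to 0.69). Cyp1b1, which acts on oestrogens and aromatic compounds, read 3.6, 4.0 and 2.0 under vehicle and 44.1, 3.2 and 35.5 under TCDD. Here 2 of 3 TCDD arrays stood above vehicle and array 2 lay within its range (log2 change 1.02, limma adjusted p = 1).

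Tiparp read 1327, 1403 and 1342 under vehicle and 3538, 3609 and 3479 under TCDD. It had the smallest spread of the called genes in both groups relative to its level, and each of its 3 probe sets gave a log2 change of at least 1.31. The change was 1.37 (standard error 0.15, 95% confidence interval 1.04 to 1.71, limma adjusted p = 0.00539), or 2.59-fold. Of the 14 other measured members of the ADP-ribosyltransferase family list, 0 were called. Among them Parp2, a DNA damage enzyme, had groups apart, at 173.7, 144.6 and 164.6 under vehicle and 188.9, 175.5 and 183.9 under TCDD (0.17).

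Rab30, a small GTPase of the Golgi, read 412.6, 501.3 and 547.9 under vehicle and 1307, 1594 and 1722 under TCDD. The groups were apart, and the 3 same-numbered changes were 1.63, 1.64 and 1.62. The fitted change was 1.63 (standard error 0.23, 95% confidence interval 1.12 to 2.13, limma adjusted p = 0.0427), or 3.09-fold. B3galnt2, a glycosyltransferase of the endoplasmic reticulum that builds the glycan of dystroglycan, read 116.7, 140.5 and 126.7 under vehicle and 345.1, 431.8 and 351.3 under TCDD. It rose 2.72-fold, by 1.44 (standard error 0.15, 95% confidence interval 1.11 to 1.77, limma adjusted p = 0.00539), in 3 of 3 pairs of arrays. The second probe set of Rab30, at a vehicle mean of 17.7, gave 0.55. The other probe sets of B3galnt2 gave 1.38, 0.42 and 0.26, in order of falling brightness. The related genes on the lists stood elsewhere. Among 25 further GTPases of the Golgi and secretory traffic, 4 had all TCDD arrays below vehicle (3.85% of all genes did) and 0 were called. Of the 4, Rab6a read 1849, 1662 and 1506 under vehicle and 1503, 1139 and 1266 under TCDD (-0.36). Galnt2, which starts O-linked GalNAc chains, read 448.9, 379.0 and 309.8 under vehicle and 528.0, 340.0 and 537.3 under TCDD (0.28, and -0.01 with the mean over its probe sets).

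**Figure D1:**
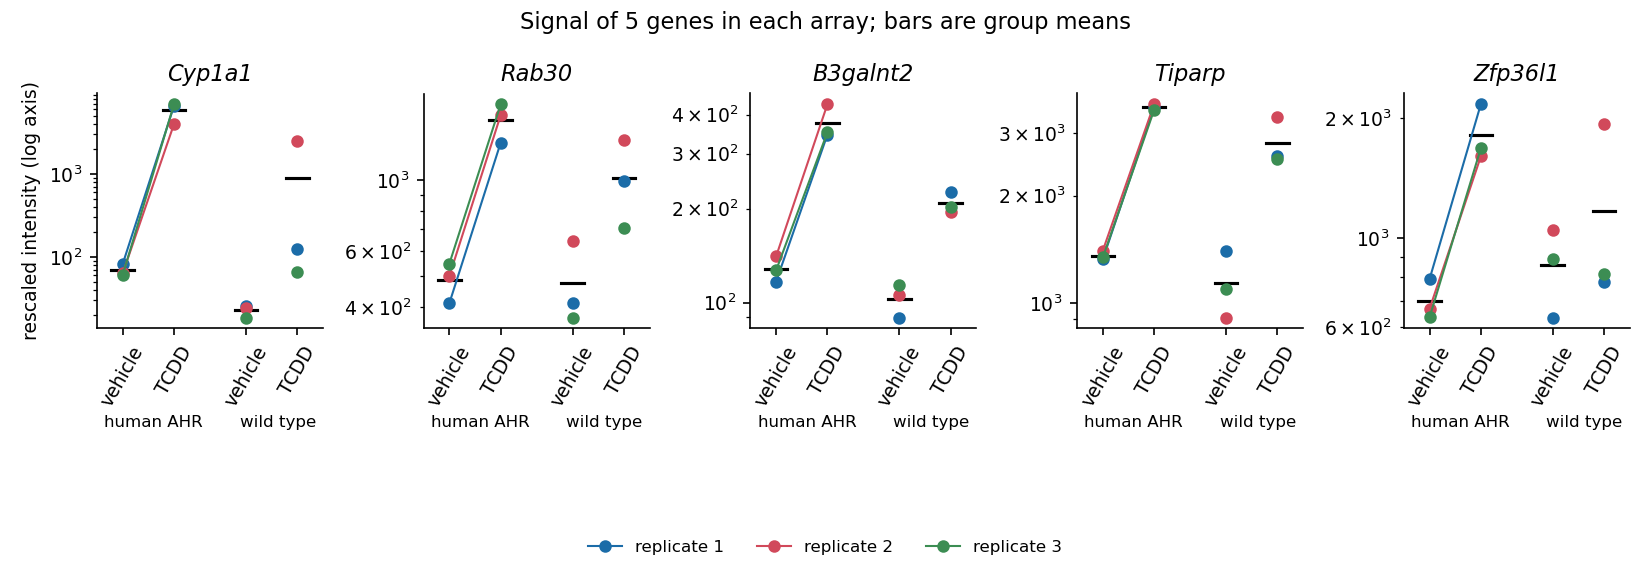
Rescaled intensity (log axis) of Cyp1a1, Rab30, B3galnt2, Tiparp and Zfp36l1 in each of the 12 arrays, by group. Points are arrays coloured by replicate number, lines join same-numbered human AHR arrays and black bars are group means of 3 arrays. In each gene all 3 human AHR TCDD arrays lie above all 3 human AHR vehicle arrays, and for Cyp1a1 the wild type TCDD arrays spread from 64.9 to 2518.

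Several of these calls were lost when 1 array was left out. With human AHR vehicle 1 or 3 or TCDD 2 left out, B3galnt2 stood at limma adjusted p = 0.0619, 0.0607 and 0.0603, and Tiparp at 0.0619, 0.0620 and 0.0603. Tiparp also lost its call without TCDD 1 (0.0542) or 3 (0.0527). Cyp1a1 and Rab30 lost theirs without any 1 of the 6 human AHR arrays (0.240 to 0.378 for Cyp1a1 and 0.159 to 0.432 for Rab30). The same held without wild type vehicle 1 (0.0933 for both), wild type vehicle 3 (0.108 and 0.0751) or wild type TCDD 1 (0.0658 and 0.0823), and for Cyp1a1 without wild type vehicle 2 (0.0852). Leaving out the other wild type TCDD arrays lowered the p, to 3.80e-08 for Cyp1a1 and 0.00981 for Rab30 without wild type TCDD 2, and to 0.0106 and 0.0125 without wild type TCDD 3. The wild type arrays enter these values only through the spread. In a limma fit of the 6 human AHR arrays alone, 6 genes were called, and Cyp1a1 stood at adjusted p = 2.03e-06, Tiparp at 0.000887, Rab30 at 0.00472 and B3galnt2 at 0.0105, joined by Hpgd and Zfp36l1 at 0.0105 each. With each gene's probe sets averaged, Tiparp alone stayed called, with Cyp1a1 at 0.123, B3galnt2 at 0.524 and Rab30 at 0.843. After quantile normalization Cyp1a1 and Rab30 stood at 0.0505, and without the intensity trend at 0.0777 and 0.0852.

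The arrays carry numbers, and same-numbered human AHR arrays resembled each other. A fit with the replicate number as a block within genotype called 5 genes (0.0275%), the 4 above and Zfp36l1, an RNA-binding protein that speeds the decay of AU-rich messages. Zfp36l1 read 791.3, 667.3 and 635.6 under vehicle and 2163, 1603 and 1680 under TCDD. Array 1 was the highest of each group, and the groups were apart (log2 change 1.35). Its limma adjusted p was 0.868 without the block and 0.0362 with it, and it was 0.0137 without wild type TCDD 2, whose own reading was 1925. The block was also fitted in wild type cells, where arrays numbered 1, 2 and 3 correlated at 0.25, 0.51 and 0.05. The first 2 values are not below the 0.19 to 0.27 of human AHR arrays, and both wild type arrays numbered 2 were high in Xist. Vehicle 1 correlated slightly more with TCDD 3 (0.28), and vehicle 3 with TCDD 1 (0.07). For numbers 1 and 3 the pairing was therefore unclear, and the wild type numbers were not taken as pairs. A second probe set gave 1.20. In the list of CCCH zinc finger and mRNA decay factors, the other 10 measured genes had 0 calls in either fit.

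On the fitted scale 16 genes, the 4 called ones among them, lay at least 2-fold higher and 3 at least 2-fold lower. TCDD and vehicle arrays were apart in 15 of the 16 and in 2 of the 3. The 12 furthest up and the 12 furthest down, among genes whose groups were apart and whose brighter group averaged at least 100, were taken for description. Over all genes the treatments were apart upwards in 609 (3.35%) and downwards in 701 (3.85%), together 7.2%. For the 12 in each direction this separation was the condition for being chosen, so nothing is read from it.

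Among the 12 furthest up outside the called genes, Tac1, which encodes the precursor of substance P, read 194.9, 269.7 and 97.0 under vehicle and 1145, 474.9 and 427.8 under TCDD (log2 change 1.74, limma adjusted p = 1). Its arrays spread widely in both groups, and its second probe set went the other way, at -0.44. Hpgd, the dehydrogenase that inactivates prostaglandins, read 105.9, 129.3 and 98.3 under vehicle and 331.8, 313.4 and 330.9 under TCDD (1.43). Its human AHR groups were tight, while its wild type TCDD arrays ran from 62.3 to 709.7, and its adjusted p was 1 with all 12 arrays. Maff, a small Maf transcription factor, read 529.6, 746.7 and 463.5 under vehicle and 1191, 1460 and 1197 under TCDD (1.15). Rnf39, a RING finger protein, read 33.4, 47.6 and 47.1 under vehicle and 129.9, 110.8 and 104.7 under TCDD (1.16, limma adjusted p = 0.188). After the called genes it was, with Zfp36l1 and Wdr91, among those of the 12 with the smallest p. Wdr91, an endosomal protein, stood at 0.96, Lmo7, a LIM domain protein, at 1.19, and Tnfaip2, named for its induction by tumour necrosis factor, at 1.14, with 101.8, 49.2 and 174.1 under TCDD against 30.6, 28.6 and 49.1 under vehicle. Array 2 was the lowest TCDD array for Lmo7, Tnfaip2 and Wdr91. The other probe sets of Wdr91 gave 0.07 and 0.71.

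Of the promoter windows of these 12 genes, 10 were in the table, and 9 of those genes had GCGTG in a window, against 35.2% of all 27025 genes with a window. Lmo7 was the one without it. Rab30 and B3galnt2 had no entry. Among the 12 furthest down, 5 of 9 genes with an entry held the letters. TNGCGTG was held by 2 of the 10 furthest up and 2 of the 9 furthest down, against 5.84% of all genes. The shares over all genes include genes dim or absent on these arrays, and no enrichment was tested.

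Dimmer genes past 2-fold were read from low signals. Ecel1, an endothelin-converting-enzyme-like peptidase, went from a mean of 3.67 to 72.2 (log2 change 2.10, limma adjusted p = 0.188), and Msr1, a macrophage scavenger receptor, from 3.30 to 25.1 (1.10, 0.0662). Plin4, a lipid droplet coat protein, went from 4.03 to 27.6 and Dclk3, a kinase, from 8.00 to 38.3. Ecel1 was called without wild type TCDD 2 or 3 (limma adjusted p = 0.0361 and 0.0418) and with array weights (0.0319). Msr1 was called with the offset raised to 50 (0.0380), after array medians were made equal (0.0293) and with array weights (0.0339). Averaged over its probe sets, Msr1 stood at 0.17, and the markers of macrophages are given below.

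**Figure D2:**
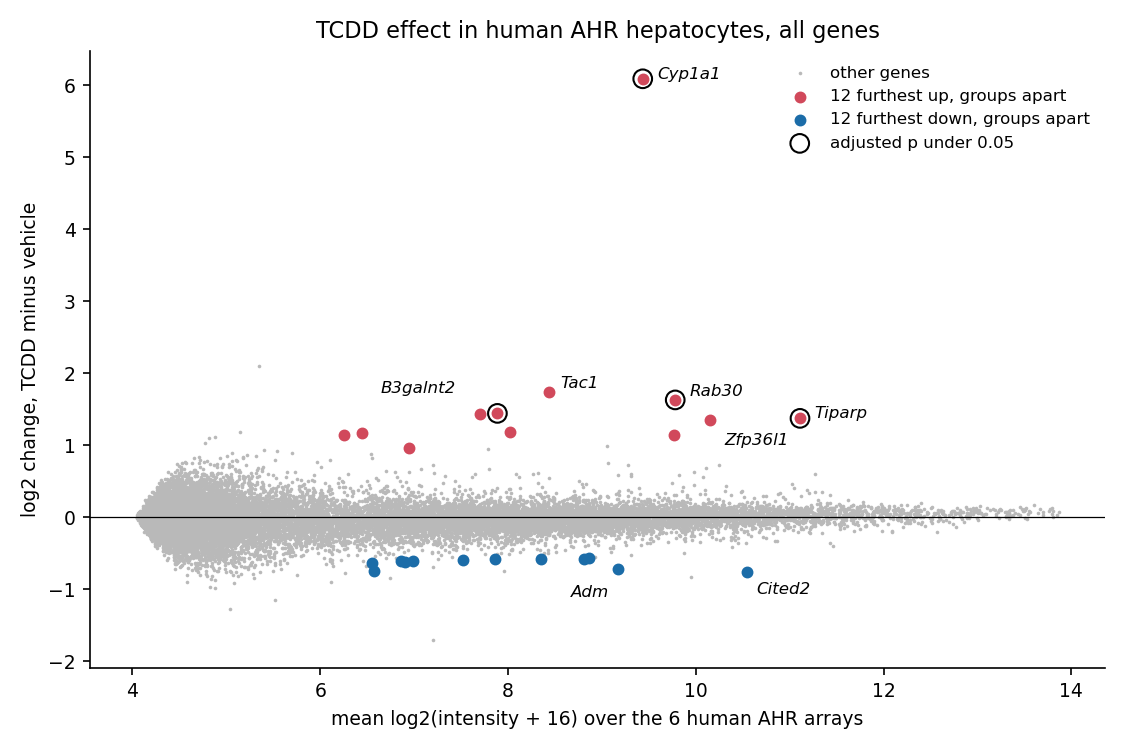
Log2 change, TCDD minus vehicle, against mean log2(intensity + 16) over the 6 human AHR arrays, 1 point per gene for 18193 genes. Red and blue points are the 12 furthest up and 12 furthest down with groups apart, and circles mark the 4 called genes. Cyp1a1 stands at 6.09, the other called genes between 1.37 and 1.63, and the furthest down of the blue points at -0.76.

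No gene was called lower, and the 12 furthest down moved less than the 12 furthest up. They ran from -0.76 to -0.57, each with a limma adjusted p of 1. Cited2, a co-regulator that competes with HIF1 for the co-activator CBP/p300, read 1918, 1874 and 2003 under vehicle and 933.6, 1184 and 1304 under TCDD (-0.76). Its groups were far apart relative to the spread within each, array 1 had the lowest TCDD value, and its second probe set gave -0.64. Adm, the vasodilator peptide adrenomedullin, read 757.8, 681.8 and 731.7 under vehicle and 471.0, 530.4 and 329.4 under TCDD (-0.71, and -0.64 in a second probe set). Vegfa, the endothelial growth factor, read 370.4, 359.2 and 424.4 under vehicle and 256.6, 246.4 and 248.9 under TCDD (-0.58). In this probe set the 3 TCDD arrays of Vegfa lay close together and all below vehicle. A second one gave -0.26 with overlapping groups, at 286.2, 195.1 and 262.6 under vehicle and 174.6, 216.5 and 218.2 under TCDD.

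The rest of the 12 were of varied function. Rb1, the retinoblastoma tumour suppressor, read 210.1, 196.2 and 220.5 under vehicle and 139.0, 113.3 and 149.7 under TCDD (-0.59), while its second, near-dark probe set gave 0.35. Ppp1r3b, which brings protein phosphatase 1 to glycogen, read 287.0, 251.0 and 267.4 under vehicle and 173.3, 196.6 and 156.6 under TCDD (-0.57). Rgs9, a regulator of G-protein signalling, stood at -0.75, Stk35, a kinase, at -0.63, Hivep2, a zinc finger protein, at -0.61 and Rcn1, a calcium-binding protein of the endoplasmic reticulum, at -0.60. Brat1 stood at -0.60, Bag2, a chaperone partner, at -0.58 and Ptdss2, a phosphatidylserine synthase, at -0.57. Ptdss2 had 442.5 and 427.5 in TCDD arrays 1 and 2 and 258.8 in array 3, so its value rests largely on array 3. Its next brightest probe sets gave -0.02, -0.05, -0.09 and -0.22. The other probe sets of Brat1 gave -0.17, 0.04 and -0.39, in order of falling brightness. Rgs2, a sister of Rgs9, had the most negative change of all, at -1.70, but its groups overlapped and its wild type change was -1.88. It read 467.8, 91.7 and 341.7 under vehicle and 99.2, 45.6 and 60.4 under TCDD. Every same-numbered pair of human AHR arrays fell, by -2.07, -0.81 and -2.23. With the replicate block the standard error of Rgs2 went from 0.65 to 0.27. It was still not called (limma adjusted p = 0.284). That fit also blocks the wild type arrays, which were not taken as paired.

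**Figure D3:**
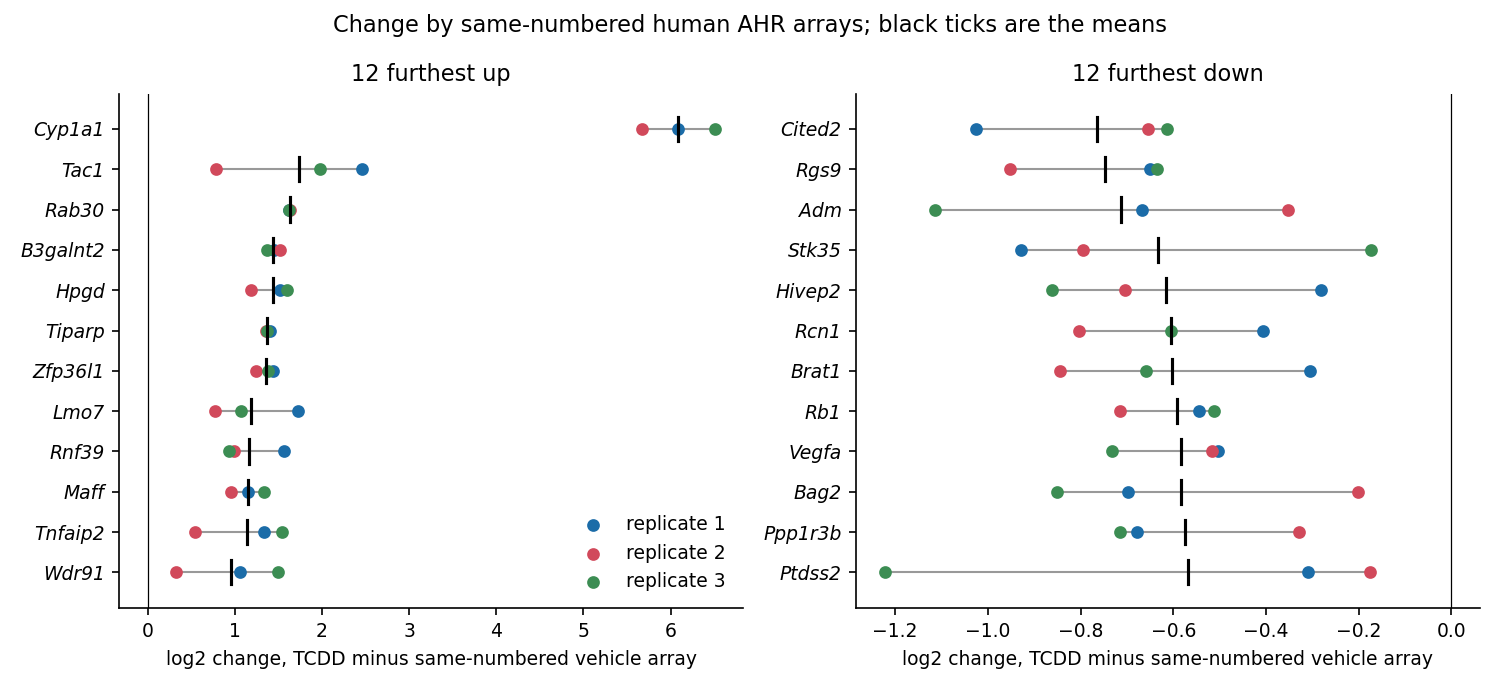
Log2 change of each human AHR TCDD array against the vehicle array of the same number, for the 12 genes furthest up (left) and the 12 furthest down (right) with groups apart. Coloured points are the 3 numbered pairs and black ticks their mean. Rab30, Tiparp and B3galnt2 have their 3 points nearly on top of each other, while Tac1 spans 0.78 to 2.46 and Ptdss2 spans -1.22 to -0.17.

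Over all genes the numbered pairs gave little shared direction. The 3 pairs were all positive in 2219 genes (12.2%) and all negative in 2550 (14%). Across all 18193 genes, the changes of one pair correlated with those of another at r = 0.02, -0.04 and 0.09, and across the 7295 genes with a mean of at least 100 at 0.19, 0.10 and 0.34. Across the 1533 genes with a mean of at least 1000 the values were 0.53, 0.45 and 0.61. Cyp1a1 is in both brighter sets through its TCDD arrays, with a mean of 1712 over 12 arrays and 68.5 under human AHR vehicle. Its pairs gave 6.08, 5.67 and 6.51, against 5th and 95th percentiles of -0.16 and 0.18 in the brightest set. Such a gene weighs heavily in r, and the values without it were not computed. Genes are not independent replicates, and these values are descriptions. In that brightest set 65.2% of genes were positive, 5.09% had all TCDD arrays above vehicle and 0.848% below, with a median change of 0.04. Among all genes 47% were positive and 53% negative, with a median of -0.01. In genes with a mean under 100, 46.3% were positive.

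The list of known AHR targets held 24 genes, of which 19 were measured and 10 had a mean of at least 100. In human AHR cells 14 of the 19 were higher, 6 had all TCDD arrays above all vehicle arrays (3.35% of all genes did) and 0 had them below, and 2 were called. The median was 0.20, against -0.01 over all genes. Over the settings tried it lay between 0.12 and 0.42, the lowest with an offset of 50 and the highest with no offset. With 1 human AHR array left out it was 0.25 to 0.35. The 6 with groups apart were Cyp1a1, Tiparp, Tnfaip2, Nfe2l2, Nqo1 and Xdh. This list was chosen with earlier results of these data known, so its count is not independent evidence.

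Nfe2l2, the gene of the antioxidant regulator NRF2, read 2122, 1992 and 1871 under vehicle and 3314, 2666 and 3131 under TCDD (log2 change 0.60, limma adjusted p = 1). Nqo1, the quinone reductase that answers to both AHR and NRF2, read 84.1, 73.6 and 63.5 under vehicle and 136.0, 139.8 and 94.2 under TCDD (0.62). Both genes had groups apart, by narrow margins in Nqo1. Xdh, the xanthine dehydrogenase of purine breakdown, read 480.7, 501.0 and 534.3 under vehicle and 703.1, 744.2 and 834.9 under TCDD (0.57), apart in every array. Pmm1, a phosphomannomutase, read 734.3, 935.9 and 723.3 under vehicle and 840.1, 1239 and 1149 under TCDD (0.41), where TCDD array 1 lay inside the vehicle range. The remaining members overlapped between groups. Ahrr, the AHR repressor, stayed dim, with 0.8, 5.2 and 0.6 under vehicle and 12.1, 1.6 and 6.7 under TCDD (0.31). Cyp2s1, a cytochrome P450, stood at 0.20, Cd36, a fatty acid transporter, at 0.17, Ugdh, which makes UDP-glucuronic acid, at 0.17, and Slc46a3, a lysosomal transporter, at 0.07. The members on the negative side were Fgf21, a liver hormone, at -0.30, the flavin monooxygenase Fmo2 at -0.30, the glutathione transferase Gsta2 at -0.06, Igfbp1, which binds insulin-like growth factors, at -0.02 and the aldehyde dehydrogenase Aldh3a1 at -0.01. Shifting arrays to the same median turned Igfbp1 to 0.03 and Aldh3a1 to 0.04.

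The receptor and its partners showed no call. In the list of the AHR complex and its co-regulators 5 of 11 measured genes were higher, with a median of -0.04 that became 0.01 when arrays were shifted to the same median. Arnt read 205.7, 267.3 and 197.0 under vehicle and 270.4, 173.1 and 234.0 under TCDD. Hif1a, which shares ARNT as its partner, stood at 0.13 and the co-activator Ncoa3 at -0.26. Among 26 measured NRF2 targets, 19 were higher, with a median of 0.05, 2 were apart upwards (3.35% of all genes were) and 0 were called. Over the settings 15 to 22 were higher. Gclc, the rate-limiting enzyme of glutathione synthesis, read 2146, 2679 and 2074 under vehicle and 2521, 3778 and 2632 under TCDD (0.36), where TCDD arrays 1 and 3 lay inside the vehicle range. Pgd, of the pentose phosphate pathway, read 4930, 5183 and 4628 under vehicle and 5250, 5818 and 5229 under TCDD (0.14), just apart.

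Targets of HIF1, the other main user of ARNT, stood mostly lower. Of 21 measured genes 16 were lower, 3 had all TCDD arrays below all vehicle arrays (3.85% of all genes did), 0 had them above, and 0 were called. The median was -0.15, and it lay between -0.20 and -0.02 over the settings. Without TCDD 1 it was -0.02 with 11 lower, without vehicle 3 it was -0.04 with 12 lower, and with an offset of 50 it was -0.07. The 3 were Adm, Vegfa and Ankrd37, an ankyrin repeat protein, which read 336.3, 284.2 and 364.9 under vehicle and 260.4, 252.2 and 244.8 under TCDD (-0.35). Vegfa was apart in its brightest probe set only. Ndrg1, a stress-response gene on the same list, went the other way at 0.38, with overlapping groups. In wild type cells 11 of the 21 were higher and the median was 0.01, although Adm stood at -0.96 and Ankrd37 at -0.83 there.

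Interferon-stimulated genes, which encode antiviral proteins, were lower in 25 of 30 measured genes, with a median of -0.22 (range over the settings -0.26 to -0.17). In 4 all TCDD arrays were below all vehicle arrays, against 3.85% of all genes, and 0 were called. Mx2, an antiviral GTPase, read 141.0, 215.1 and 164.3 under vehicle and 80, 167.6 and 72.9 under TCDD (-0.69). Oas3, a sensor of double-stranded RNA, read 83.0, 62.0 and 75.2 under vehicle and 57.2, 13.1 and 64.4 under TCDD (-0.68). In both genes 1 TCDD array lay inside the vehicle range. The numbered pairs had list medians of -0.01, -0.36 and -0.19, so the first pair held little of it. In wild type cells the list was lower in 28 of 30, with a median of -0.31.

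Immediate early genes, the transcription factors that cells switch on within minutes of a stimulus, were lower in 13 of 19, with a median of -0.08 that became 0.02 without vehicle 2. Fosb read 17.4, 37.0 and 33.5 under vehicle and 4.5, 9.6 and 15.4 under TCDD (-0.80), apart but dim. Of 18 clock genes 9 were higher and 9 lower, and 3 were apart downwards, against 3.85% of all genes. Per1, a repressor of the clock, read 376.6, 247.4 and 218.3 under vehicle and 192.5, 200.1 and 177.1 under TCDD (-0.49). Bhlhe40, a repressor that also answers to hypoxia, read 1046, 970.0 and 1067 under vehicle and 726.9, 907.0 and 860.9 under TCDD (-0.30). Neither was called.

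**Figure D4:**
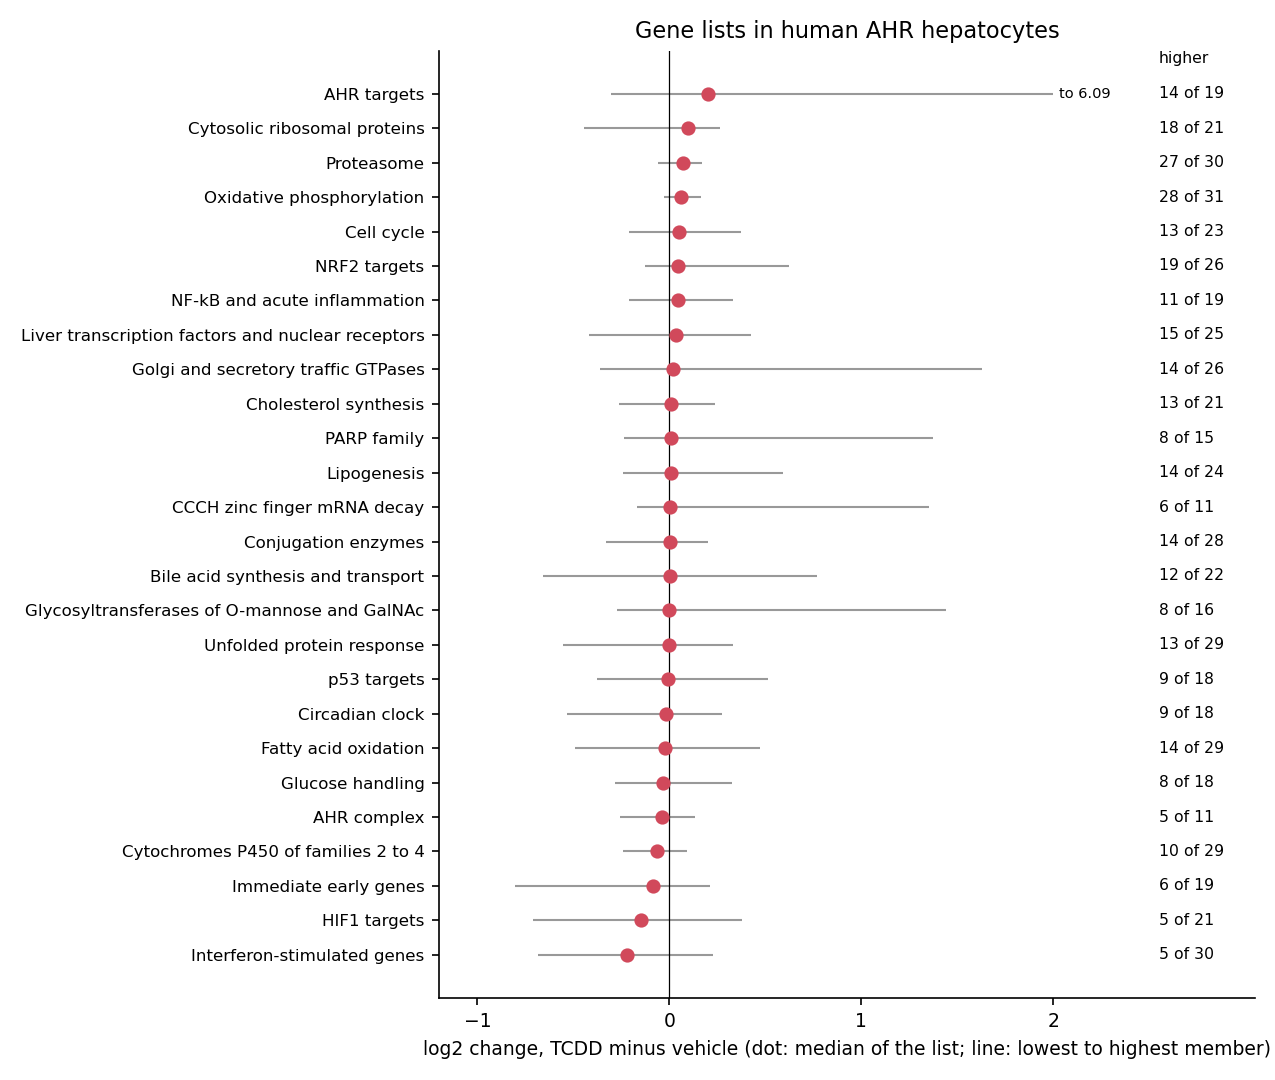
Log2 change, TCDD minus vehicle, in human AHR hepatocytes for the 26 pathway lists. The dot is the median of the measured members, the line runs from the lowest to the highest member, and the numbers at the right count the members higher under TCDD. AHR targets have a median of 0.20, interferon-stimulated genes -0.22 and HIF1 targets -0.15, while the other medians lie within 0.1 of 0.

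Lists of bright housekeeping genes stood slightly higher, and 0 of their members were called. Of the subunits of oxidative phosphorylation 28 of 31 were higher with a median of 0.06, of the cytosolic ribosomal proteins 18 of 21 with 0.10, and of the proteasome 27 of 30 with 0.07. In each list 2 genes were apart upwards and 0 downwards. Of all genes 3.35% were apart upwards, and of genes with a mean of at least 1000, 5.09%. With 2 genes in a list, nothing more is read from these shares. Psmd1, a subunit of the proteasome cap, read 1579, 1641 and 1604 under vehicle and 1772, 1764 and 1895 under TCDD (0.17). Ndufb8, of respiratory complex I, read 2173, 2092 and 2504 under vehicle and 2440, 2398 and 2744 under TCDD (0.16), which overlapped. After quantile normalization the medians were 0.03, 0.05 and 0.03, and with array medians made equal 0.11, 0.15 and 0.12. For oxidative phosphorylation the median was 0.02, with 18 of 31 higher, without vehicle 2, and 0.10 without vehicle 3. For the ribosomal proteins it was 0.04 without vehicle 1, 0.05 without TCDD 2, 0.17 without vehicle 3 and 0.15 without TCDD 1. For the proteasome it was 0.03, with 21 of 30 higher, without vehicle 1 and 0.04 without TCDD 2. The shares compare with 65.2% positive among genes with a mean of at least 1000, the level of most of these subunits, and the part of signal level in these medians was not tested.

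Drug-metabolising and metabolic lists had 0 calls and medians close to 0. Of the cytochromes P450 of families 2 to 4, 19 of 29 measured were lower, with a median of -0.06 that became 0.04 without vehicle 3. Cyp2c37 was the one apart, at 381.1, 451.1 and 419.1 under vehicle and 371.9, 358.6 and 365.9 under TCDD (-0.18). The medians were 0.00 for conjugation enzymes, 0.01 for cholesterol synthesis, -0.02 for fatty acid oxidation, 0.01 for lipogenesis, -0.03 for glucose handling and 0.00 for bile acid synthesis and transport. Each of these crossed 0 under at least 1 of the settings, so no direction is given for them. In lipogenesis, Lpin2, a phosphatidate phosphatase, read 690.0, 702.4 and 773.1 under vehicle and 812.6, 1104 and 1458 under TCDD (0.59). Its groups were apart, and its TCDD arrays spread more widely than its vehicle arrays. Fbp1, of gluconeogenesis, read 953.1, 839.5 and 1009 under vehicle and 1129, 1105 and 1284 under TCDD (0.33), apart. Slco1a4, a bile acid and drug uptake transporter, read 28, 24.1 and 48 under vehicle and 11, 19 and 14.4 under TCDD (-0.66), apart and dim.

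The other regulatory lists also held 0 calls. The unfolded protein response had 13 of 29 genes higher (median 0.00), the liver transcription factors and nuclear receptors 15 of 25 (0.03), the p53 targets 9 of 18 (-0.01), the cell cycle 13 of 23 (0.05) and the NF-kB and inflammation list 11 of 19 (0.05). Bbc3, a cell death gene induced by p53, read 92.1, 66.6 and 46.1 under vehicle and 117.9, 93.6 and 93.7 under TCDD (0.51), just apart. Hnf4a, a master regulator of hepatocytes, read 904.7, 839.2 and 1114 under vehicle and 1156, 1031 and 1563 under TCDD (0.37), overlapping.

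Most markers of other liver cells were present at low levels, and the ranges of their sums overlapped between the treatments. A mean of at least 100 was reached by 2 of 16 Kupffer cell and macrophage markers and 1 of 16 stellate cell markers. The same level was reached by 1 of 5 cholangiocyte and 0 of 12 endothelial markers, so a sum can rest on few genes. The sum over 16 Kupffer cell and macrophage markers was 3153, 5275 and 6594 in the vehicle arrays and 2958, 5419 and 6063 in the TCDD arrays, so it followed the array number and not the treatment. Of the 16, 7 were higher, 1 (Timd4) was under 16 in all 6 arrays, and the list median moved from -0.60 to 0.41 when the vehicle or the TCDD array numbered 1 was left out. The sums over stellate cell markers were 1901, 743.8 and 1404 under vehicle and 1557, 755.9 and 1385 under TCDD. Col1a1, Col3a1, Lrat, Lum and Pdgfrb were under 16 in all 6. Reln and Acta2 were past an unadjusted p of 0.05 in opposite directions, Reln, an extracellular protein, at 0.88 and Acta2, smooth muscle actin, at -1.15. Endothelial markers summed to between 267.4 and 432.4 under vehicle and between 248.1 and 379.8 under TCDD. Cholangiocyte markers summed to 1371, 543.4 and 1025 under vehicle and 1147, 534.8 and 924.2 under TCDD. The stellate and cholangiocyte sums also followed the array number, highest in array 1, where the Kupffer cell and macrophage sum was lowest. Lymphocyte markers summed to at most 111.5 and red cell markers to at most 98.6. The part of these cells in the interferon and Msr1 values was not tested.

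Whether the response differs from that through the mouse receptor was asked of the difference of the TCDD effects, human AHR minus wild type. Limma called 0 genes for it (0%), and 573 genes (3.15%) had an unadjusted p under 0.05. Tiparp rose in wild type cells as well (log2 change 1.30, limma adjusted p = 0.0193), and its difference was 0.07 (95% confidence interval -0.40 to 0.54). Cyp1a1 went from 25.3, 24.0 and 18.5 to 124.9, 2518 and 64.9 in wild type arrays, a log2 change of 3.00 that was not called (limma adjusted p = 0.966). Each human AHR TCDD array was above each wild type TCDD array. The difference was 3.09 (95% confidence interval 0.43 to 5.75, limma adjusted p = 0.999). Without wild type TCDD 2, the array that read 2518 and was high in Xist, it was 4.61 (3.84 to 5.39, limma adjusted p = 0.000179), where 1 gene was called. Without wild type TCDD 1 or 3 it was 2.53 (-0.24 to 5.30) and 2.13 (-0.20 to 4.46), and both intervals include 0. Rab30 stood at 1.05 and B3galnt2 at 0.91 in wild type cells, with differences of 0.58 (-0.14 to 1.29) and 0.53 (0.06 to 0.99).

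Zfp36l1 was at 0.34 in wild type cells, where TCDD arrays 1 and 3 read 776.7 and 815.7, within the vehicle range of 635.1 to 1052. TCDD array 2 read 1925, above all wild type vehicle arrays, of which array 2 was the highest at 1052. The difference for Zfp36l1 was 1.01 (95% confidence interval 0.13 to 1.90, limma adjusted p = 0.999). Cyp1a2 had the opposite order, with 0.87 in wild type and 0.11 in human AHR cells and a difference of -0.76 (-1.58 to 0.07). Its vehicle level was 2572 to 3352 in human AHR and 428.7 to 734.4 in wild type arrays. For Maff, 1.15 and 1.06 stood side by side, for Tac1 1.74 and 1.56, for Cited2 -0.76 and -0.68 and for Xdh 0.57 and 0.66. Rgs9 stood at -0.75 in human AHR and 0.27 in wild type cells, the widest gap among the 12 furthest down. The AHR target list was higher in 18 of 19 genes in wild type cells with a median of 0.41. Only the wild type TCDD arrays were deposited on another scale. Anything tied to that scale cannot be told apart from the TCDD effect in wild type cells, and so enters each difference above. The labels give no dates, so that genotype cannot be told apart from the day the cells were cultured. Only the wild type arrays numbered 2 were high in Xist (3085 under vehicle and 2952 under TCDD), and no human AHR array was. The part of sex in the differences was not tested.

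**Figure D5:**
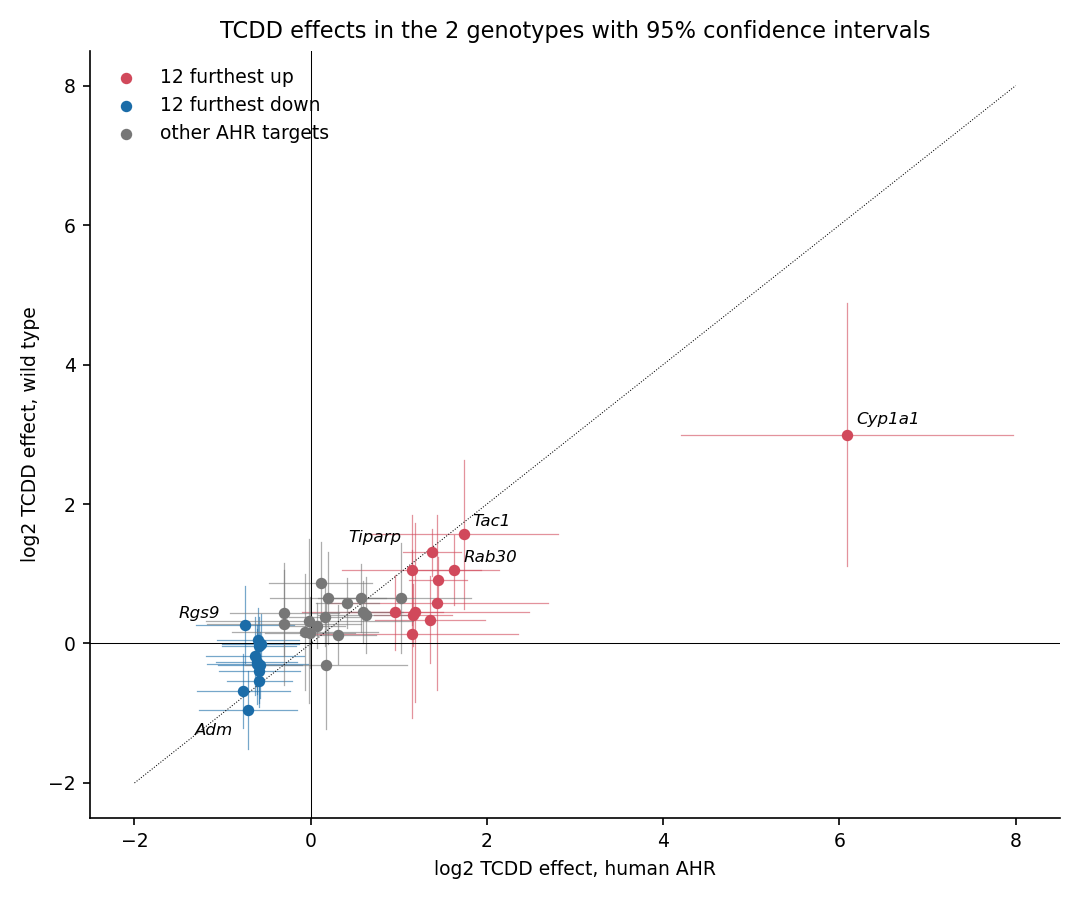
Log2 TCDD effect in human AHR hepatocytes (horizontal) and in wild type hepatocytes (vertical) for the 12 genes furthest up, the 12 furthest down and the other AHR targets, with 95% confidence intervals from the fit over 12 arrays. The dotted line marks equal effects. Tiparp and Tac1 lie near the line, Cyp1a1 lies below it at 6.09 and 3.00, and Rgs9 has opposite signs in the genotypes.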

How the data were processed

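RNA of primary hepatocytes was measured on 12 Affymetrix mouse arrays with 45101 probe sets. The deposited values are linear intensities made by the authors in Affymetrix Expression Console 1.1, per the submitters' processing notes, and with PLIER, per the design text. The 2% trimmed mean was 150 in 9 arrays. It was 500 in the 3 others, those of wild type cells under TCDD. Shared round means of this kind come from global scaling, so PLIER as the sole step is doubtful. All arrays were brought to 150 (factor 0.3 for those 3).

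Of the probe sets, 34945 named 1 symbol, 932 several and 9160 none, and 64 were controls. The annotation was GEO's platform table, with symbols updated through RefSeq. Each of 18193 genes was represented by its brightest probe set, by the mean of 12 arrays. On log2(intensity + 16), group means were fitted over the 12 arrays with limma 3.58.1 (R 4.3.3), which left 8 residual degrees of freedom, and eBayes took a trend on intensity. Tests were two-sided with Benjamini-Hochberg adjustment, a threshold of 0.05 and 95% intervals. They measure the spread between these arrays, whose number limits the precision. The fit was tested on simulated data.

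Named genes were those called with or without the replicate block, the 12 furthest up and down with groups apart and a brighter mean of at least 100, Ahr, Arnt, Ttr, Alb and the AHR targets, and at most 4 members per list with the smallest p. Genes past 2-fold outside this rule were chosen after their values were seen. The 33 lists held 730 entries, 657 of them measured. Members and lists were chosen with earlier results of these data known.

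Deviations from group means correlated at 0.19 to 0.27 between same-numbered human AHR arrays and at -0.19 to -0.04 between others, so numbers were taken as pairing these. This comes from the values, not from the labels. The main fit held no replicate block, so its calls, standard errors and intervals do not use the pairing. Same-numbered wild type arrays correlated at 0.05 to 0.51 and others at -0.46 to 0.28. These ranges overlapped, and the wild type arrays were not taken as paired. Alternatives covered offset, normalization, dim genes, fit, probe sets, block, fold limit, SAM and each array left out. Figures used matplotlib 3.10.9 in Python 3.11.15.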

Additional observations from a re-analysis of the deposited data

How the results depend on the processing

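The 4 calls in human AHR cells became 2 after quantile normalization, 2 without the intensity trend, 2 with every probe set tested and 1 with a gene's probe sets averaged, and SAM over all 20 assignments at 5% gave 7, adding Ecel1, Hpgd and Zfp36l1. With 1 array left out the count lay between 0 and 6, and for the difference of the effects between 0 and 1. With the replicate block within genotype it was 5, adding Zfp36l1, and the block changed no other call among the genes named. The remaining alternatives gave 4 to 6. Of 89 genes checked under 22 alternatives, 78 never turned direction, and none that was called did. Leaving out a wild type array, the trend or dim genes cannot change a gene's log2 change in human AHR cells. The same holds for the block and for the fit on human AHR arrays alone. A gene with groups apart also cannot turn when 1 array is left out. Direction was thus partly fixed in advance, and the count of 78 is no measure of how firm the values are. With 1 array left out, values ran from -0.12 to 0.21 for Aldh3a1, -0.28 to 0.20 for Gsta2, -0.41 to 0.43 for Igfbp1, -0.20 to 0.45 for Cd36, -0.12 to 0.02 for Ahr, -0.13 to 0.17 for Arnt, -0.09 to 0.35 for Ugdh, -0.51 to 0.03 for Fmo2 and -0.02 to 0.19 for Alb. Aldh3a1 was at 0.37 with no offset, 0.03 after quantile normalization, 0.04 at the same median and 0.02 with array weights. At the same median Igfbp1 was at 0.03 and Ahr at 0.01. Alb was at -0.02 after quantile normalization and Arnt at 0.00 with array weights. With probe sets averaged Fmo2 was at 0.01, Arnt at -0.18, Galnt2 at -0.01 and Lss at -0.09. The cause was not tested. Shifting arrays to the same median moved the median of all genes from -0.01 to 0.04. With 3 arrays a group, the median standard error was 0.22 over all genes and 0.15 at a mean of at least 1000, which limits what could be seen below 2-fold.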

Other observations

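Probe sets without a single gene symbol entered no comparison by gene. Of the 9160 with no symbol and the 932 with several, 0 were called when every probe set was tested. The smallest p among those with groups apart and a brighter mean of at least 100 was that of a probe set with no listed symbol. It read 263.1, 318.4 and 260.5 under vehicle and 752.6, 508.0 and 630.4 under TCDD, with a log2 change of 1.11 (95% confidence interval 0.74 to 1.48) and a limma adjusted p of 0.0925. All its TCDD arrays lay above its vehicle arrays. Among the 10 such probe sets with the smallest p, the brightest, whose annotation names several genes, read 6032, 4800 and 5341 under vehicle and 7037, 7441 and 6766 under TCDD (0.40, limma adjusted p = 1). Igha, an immunoglobulin heavy chain gene, was among the 3 genes at least 2-fold lower, with means of 37.8 ± 19.7 under vehicle and 5.20 ± 1.18 under TCDD (SD, n = 3) and a log2 change of -1.27 (limma adjusted p = 1). Its wild type means were 32.9 and 26.3.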
